A study of Mus musculus with 6 samples.

Results

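The non-clustered delta protocadherins are single-gene members of the protocadherin family of calcium-dependent adhesion proteins. The 10 genes described here are Pcdh1, Pcdh7, Pcdh8, Pcdh9, Pcdh10, Pcdh11x, Pcdh17, Pcdh18, Pcdh19 and Pcdh20. They were taken by gene symbol, and all 10 were among the 24421 genes of the deposited count table. RNA sequencing was done on 3 wild type hippocampus libraries and 3 from a Ctcf conditional knockout (cKO), all of the strain given as C57/Bl. The labels give no Cre line, age or sex, and they number the libraries of each genotype without saying that these came from separate animals. The p-values thus weigh each difference against the spread between these libraries, which need not be the spread between animals. CTCF is a zinc finger protein that binds DNA at chromatin loops and insulators, and the comparison asks how hippocampal transcription differs when its gene is lost.

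Each delta protocadherin is read from its own promoter at its own locus, unlike the clustered protocadherins, whose isoforms are chosen among arrays of promoters that CTCF is known to bind. The family mediates mostly homophilic contacts between neurons and is known for roles in axon growth, synapse formation and synapse loss. Delta-1 members (Pcdh1, Pcdh7, Pcdh9 and Pcdh11x) carry a cytoplasmic motif that binds protein phosphatase 1. Several delta-2 members (the group of Pcdh8, Pcdh10, Pcdh17, Pcdh18 and Pcdh19) recruit the WAVE complex, which drives branched actin assembly. Pcdh20 is usually placed in neither group.

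Start-site windows of 3 members are shown because their levels differed most in kind across the libraries. Pcdh8 had the largest difference between genotypes, Pcdh20 was far lower in 1 wild type library, and Pcdh10 was highest in that library. The windows run from 250 bases before to 50 bases after the RefSeq start site on GRCm38.p6 and are written 5′ to 3′ on the gene's strand. They lie at chr14:79771263-79771562 (minus strand), chr14:88471347-88471646 (minus strand) and chr3:45378148-45378447 (plus strand). Capitals mark TATAAA, the TATA element, CCCTC, the letters from which CTCF takes its name, and TGACG, the core of the site of cAMP response factors, each with its reverse complement.
Pcdh8: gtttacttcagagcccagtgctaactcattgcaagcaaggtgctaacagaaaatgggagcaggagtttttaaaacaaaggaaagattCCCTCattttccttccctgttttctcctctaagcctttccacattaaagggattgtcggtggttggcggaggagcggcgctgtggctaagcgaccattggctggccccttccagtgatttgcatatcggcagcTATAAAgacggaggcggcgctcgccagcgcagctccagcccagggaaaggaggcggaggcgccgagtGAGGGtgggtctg
Pcdh20: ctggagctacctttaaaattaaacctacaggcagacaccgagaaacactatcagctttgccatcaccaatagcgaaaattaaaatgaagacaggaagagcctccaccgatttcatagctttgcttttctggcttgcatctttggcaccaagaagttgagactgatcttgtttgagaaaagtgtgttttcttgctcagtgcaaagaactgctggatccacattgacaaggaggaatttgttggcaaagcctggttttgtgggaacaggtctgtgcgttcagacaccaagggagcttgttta
Pcdh10: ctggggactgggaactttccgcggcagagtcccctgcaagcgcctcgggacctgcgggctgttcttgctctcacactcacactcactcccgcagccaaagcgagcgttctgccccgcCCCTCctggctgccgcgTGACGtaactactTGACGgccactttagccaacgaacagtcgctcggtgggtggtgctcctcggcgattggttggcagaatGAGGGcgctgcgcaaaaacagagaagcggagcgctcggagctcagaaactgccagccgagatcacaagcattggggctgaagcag

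RefSeq gave windows for 8 members. Pcdh8 was the 1 member of these with TATAAA, at position -30 from its start site, against 13.6% of all 32851 windows searched on both strands. The letters CCCTC were in the windows of 6 members and in 66% of all windows, and TGACG was in those of Pcdh10 and Pcdh9 and in 20.8% of all. The full cAMP response site TGACGTCA (1.79% of all windows) was in the window of no member, which says only that these letters are not there. TGACGTCA contains TGACG. The Pcdh20 window held 4 CG dinucleotides and the Pcdh17 window 26, against a median of 7 over all windows.

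Ctcf itself was at 64.3, 65.2 and 70.3 CPM (read counts scaled to a common library size by TMM) in the wild type libraries and at 24.1, 34.5 and 35.8 CPM in the cKO libraries. It fell by 1.08 on the log2 scale (SE 0.15, adjusted p = 0.0264, edgeR's quasi-likelihood test), with an adjusted p of 0.0604, 0.101 and 0.124 when wild type replicate 1, wild type replicate 3 or cKO replicate 2 was left out. Libraries held 14974750 to 23220455 counted reads. Summed over 8 striatal marker genes, levels were 627.9, 2970.6 and 1239.5 CPM in wild type and 131.5, 364.5 and 219.7 CPM in cKO, so this level was highest in wild type replicate 2 and separated the genotypes. Summed levels of 10 hippocampal neuron markers were 529 to 754.3 CPM in wild type and 537.7 to 733.7 CPM in cKO, so markers of the labelled tissue were present in every library. In bulk tissue, fewer cells of a type and less RNA per cell cannot be told apart.

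No delta protocadherin passed the test across all 14916 genes in edgeR at an adjusted p of 0.05, where 1.51% of all genes tested passed in either direction and 1.05% were called higher. All 10 passed the low-count filter, 9 had a positive log2 fold change, and the median was 0.29, while 49.2% of all tested genes were positive with a median of -0.00. At an unadjusted p under 0.05, 3 members were higher in cKO, Pcdh8, Pcdh9 and Pcdh17, against 11.1% of all tested genes. In 5 members every cKO library lay above every wild type library, Pcdh8, Pcdh9, Pcdh11x, Pcdh17 and Pcdh19, against 14.6% of all tested genes, or 27% in either direction, and in none did they lie below. Limma-voom called 0 members and 198 of all tested genes. DESeq2 called 1 member, Pcdh8, where it called 3.42% of all genes higher. The authors' deposited table also lists Pcdh8 as its 1 member with an adjusted p under 0.05, in a table where 2.41% of genes with such a value were higher by that rule.

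**Figure D1:**
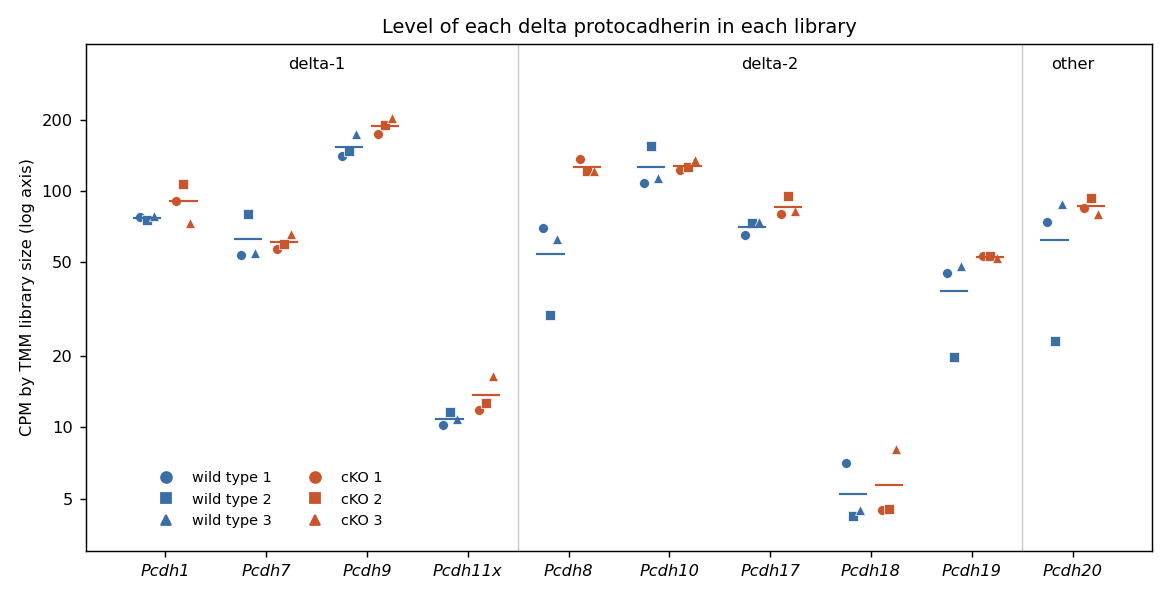
Level of each of the 10 members in each library, in CPM on a log axis, with wild type in blue, cKO in orange, symbols for replicates and a line at each group mean (n = 3). The wild type replicate 2 square lies far below the other wild type points for Pcdh8, Pcdh19 and Pcdh20 and above them for Pcdh7 and Pcdh10.

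**Figure D2:**
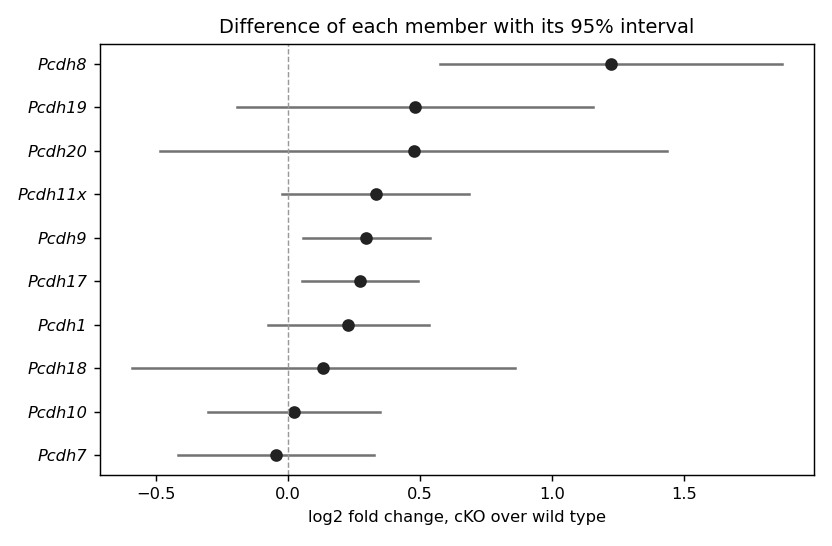
Log2 fold change of each member, cKO over wild type, with its 95% interval computed from the F statistic of the edgeR fit over 14916 genes. Intervals of Pcdh8, Pcdh9 and Pcdh17 do not include 0, and no member passed after adjustment over all genes.

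Among the delta-2 members, Pcdh8 differed most. Pcdh8, also called arcadlin, is induced by synaptic activity in rat hippocampus, where it lowers N-cadherin at the synapse. It is a short gene of 4.5 kb on chromosome 14 (79766772 to 79771312, GRCm38), and 436 of its exon bases lie opposite the antisense gene Gm9748. Gm9748 is not among the counted genes, and whether the counting used strand is not known. Reads of Gm9748 counted to Pcdh8 therefore cannot be told apart. In the order of the replicates, Pcdh8 was at 69.8, 30.0 and 63.0 CPM in wild type and at 137.2, 121.6 and 121.9 CPM in cKO, as are values per library below. Every cKO library thus lay above every wild type library, and the spread was wider in wild type, with coefficients of variation of 39.2% and 7.04%. The means were 54.3 ± 21.3 and 126.9 ± 8.93 CPM (SD, n = 3 each), a fitted ratio of 2.34.

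The log2 fold change of Pcdh8 was 1.22 (SE 0.28, 95% interval 0.58 to 1.87), with an adjusted p of 0.0802 by edgeR. DESeq2 gave an adjusted p of 0.000255 for the same difference, and the authors' deposited table lists a log2 fold change of 1.22 with an adjusted p of 0.000333. Without wild type replicate 2 the Pcdh8 log2 fold change was smaller, 0.93, and its edgeR adjusted p was 0.00797, where 0.643% of genes were called higher. Without that library and cKO replicate 1 it was 0.87 (adjusted p = 0.0154, against 0.497% called higher). The difference therefore passed in edgeR when the wild type library with the lowest Pcdh8 level was left out.

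Within the wild type libraries, Pcdh8 was lowest in replicate 2, where the summed striatal marker level was highest, and highest in replicate 1, where that level was lowest. The 3 cKO libraries had the lowest striatal marker levels of the 6 and the highest Pcdh8 levels. The striatal markers were listed with earlier results of these data known, so their counts describe these libraries and are no independent support. All 8 striatal markers had negative log2 fold changes (median -2.79). EdgeR called 0 of them with 8 at an unadjusted p under 0.05, against 8.81% of all tested genes lower by that rule. DESeq2 called all 8 lower, where it called 2.39% of all genes lower, and edgeR with a replicate block also called all 8 lower. Adora2a, an adenosine receptor gene of striatal neurons, had 27.5, 140.7 and 59.6 CPM in wild type and 3.04, 11.02 and 7.92 CPM in cKO. Tac1, the substance P precursor gene, had 27.5, 86.0 and 39.3 CPM in wild type and 5.89, 11.3 and 13.2 CPM in cKO. None of the 8 markers was at 0 in any library. Because this level did not overlap between the genotypes, genotype and striatal marker level cannot be told apart for Pcdh8. The same holds for every other member and for the summed level of the members.

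**Figure D3:**
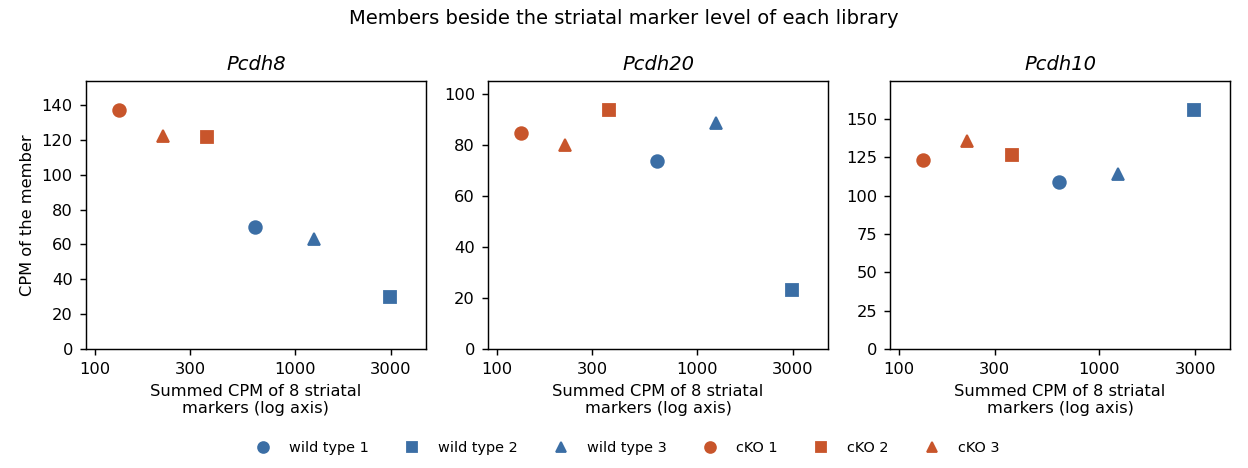
CPM of Pcdh8, Pcdh20 and Pcdh10 in each library against the summed CPM of 8 striatal markers on a log axis, with wild type in blue and cKO in orange. Wild type replicate 2 is the point farthest right, at 2970.6 CPM of striatal markers, with 30.0 CPM of Pcdh8, 23.3 CPM of Pcdh20 and 155.8 CPM of Pcdh10.

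Pcdh19, an X-linked gene whose loss causes an epilepsy in humans and whose protein acts together with N-cadherin, lies on the X chromosome at 133582860 to 133689044. It had 45.3, 19.9 and 48.1 CPM in wild type and 53.4, 53.0 and 51.9 CPM in cKO. The cKO libraries lay close together and above all wild type libraries, and wild type replicate 2 stood apart at the low end, as it did for Pcdh8. The Pcdh19 log2 fold change of 0.48 (SE 0.29, interval -0.19 to 1.16, adjusted p = 0.391 by edgeR) was 0.18 without that library.

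Pcdh17, which acts in presynaptic assembly in basal ganglia circuits and in joint growth of axons, spans 94.0 kb of chromosome 14 (84443563 to 84537565). Its level was 65.1, 73.1 and 74.4 CPM in wild type and 79.9, 95.1 and 82.3 CPM in cKO. The groups did not overlap, and wild type replicate 2 lay among the others. The log2 fold change of Pcdh17 was 0.27 (SE 0.09, interval 0.05 to 0.49), with an adjusted p of 0.178.

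Pcdh10, which binds a WAVE complex subunit and takes part in synapse elimination downstream of the Mef2 factors, had 108.7, 155.8 and 114.1 CPM in wild type. In cKO it had 123.1, 126.2 and 135.3 CPM, between the wild type extremes, so the groups overlapped. Its log2 fold change was 0.02 (interval -0.30 to 0.35). Without wild type replicate 2, its highest library, it was 0.20 (adjusted p = 0.261). Pcdh18, whose protein binds the reelin signalling adaptor Dab1, had 7.08, 4.21 and 4.45 CPM in wild type and 4.47, 4.52 and 8.09 CPM in cKO. Wild type replicate 1 and cKO replicate 3 were its high libraries, and its log2 fold change was 0.14 (interval -0.59 to 0.86) with all libraries and -0.22 without cKO replicate 3.

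Among the delta-1 members, Pcdh9 was the most abundant and is the longest of the 10 genes, at 879.1 kb on chromosome 14 (93013700 to 93892834). Pcdh9 is expressed in cortical and hippocampal neurons, and its loss in mice alters recognition memory. It had 140.8, 147.4 and 174.7 CPM in wild type and 175.0, 190.4 and 203.5 CPM in cKO. The groups touched but did not overlap, since the lowest cKO library lay just above wild type replicate 3. The Pcdh9 log2 fold change was 0.30 (SE 0.10, interval 0.06 to 0.54, adjusted p = 0.182).

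Pcdh11x, an X-linked gene with a role in neural progenitors, was low, with 10.2, 11.7 and 10.9 CPM in wild type and 11.8, 12.7 and 16.5 CPM in cKO. These groups also lay apart by a small margin, cKO replicate 3 was the high library, and the log2 fold change was 0.33 (interval -0.02 to 0.69, adjusted p = 0.276), or 0.17 without that library. Pcdh1, known in humans as an adhesion gene of the airway epithelium, lies on chromosome 18 and had 77.6, 75.9 and 78.2 CPM in wild type. In cKO it had 91.2, 107.1 and 73.5 CPM, so the groups overlapped and its spread was wider in cKO, with coefficients of variation of 1.6% and 18.5%. The Pcdh1 log2 fold change was 0.23 (interval -0.08 to 0.53, adjusted p = 0.368), and it was 0.09 without cKO replicate 2, its highest library, and 0.36 without cKO replicate 3, its lowest.

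Pcdh7, which in frogs guides the growth of retinal axons, was the 1 member with a negative log2 fold change, -0.05 (interval -0.42 to 0.32). It had 53.8, 80.0 and 54.97 CPM in wild type and 57.1, 59.7 and 65.8 CPM in cKO. All cKO libraries lay between wild type replicate 2 and the other wild type libraries, and without replicate 2 the Pcdh7 log2 fold change was 0.16 (adjusted p = 0.403). GENCODE M21 places 2235 exon bases of Pcdh7 opposite the antisense gene 4932441J04Rik. That gene had 0 to 7 counts in any library, so few reads were assigned to it. No source used here says whether the counting used strand, so reads of the 2 genes cannot be told apart.

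Pcdh20, which helps place neurons in layer IV of the mouse cortex, had 73.7, 23.3 and 88.6 CPM in wild type and 84.8, 93.9 and 80.2 CPM in cKO. The groups overlapped, and wild type replicate 2 was the 1 library far from the rest. The Pcdh20 log2 fold change was 0.48 (SE 0.41, interval -0.48 to 1.44, adjusted p = 0.553), 0.09 without that library and 0.83 without wild type replicate 3.

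Wild type replicate 2 thus divided the members. Its level over the mean of the other wild type libraries was 0.287 for Pcdh20, 0.426 for Pcdh19 and 0.452 for Pcdh8. Of all tested genes, 0.825%, 1.86% and 2.13% had a lower ratio than Pcdh20, Pcdh19 and Pcdh8. At the other end the ratio was 1.47 for Pcdh7 and 1.4 for Pcdh10, and 8.88% and 10.7% of tested genes had a higher one. The remaining 5 members lay between 0.73 (Pcdh18, with 9.5% of tested genes lower) and 1.11 (Pcdh11x, with 28.3% higher). In the same library the summed level of 10 neocortical and thalamic markers was 525 CPM, against 1030.5 and 1053.1 CPM in wild type replicates 1 and 3. The summed level of 8 choroid plexus markers was 12114.6 CPM there, against 6327.1 and 7704.7 CPM in those libraries, and no marker of either list was at 0. Their part in the members' levels was not tested.

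**Figure D4:**
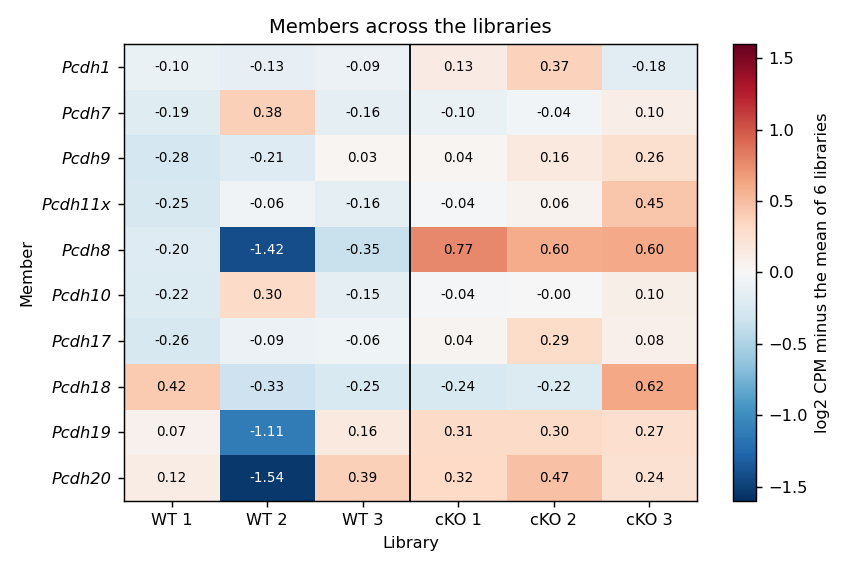
Log2 CPM of each member in each library minus that member's mean over the 6 libraries, with red above and blue below the mean. Wild type replicate 2 has -1.54 for Pcdh20, -1.42 for Pcdh8 and -1.11 for Pcdh19, and 0.38 for Pcdh7.

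Levels of different genes were compared as CPM per kilobase of exon. Pcdh9 was highest per length, at 22.8 ± 2.65 in wild type and 28.0 ± 2.10 in cKO (SD, n = 3 each). Pcdh8 had 11.96 ± 4.69 in wild type and 28.0 ± 1.97 in cKO, where its libraries, from 26.8 to 30.2, overlapped those of Pcdh9, from 25.8 to 30.0. Pcdh20, Pcdh1, Pcdh10, Pcdh17, Pcdh7 and Pcdh19 followed, with wild type means of 11.3, 8.78, 7.94, 5.46, 5.93 and 3.61 per kilobase and cKO means of 15.7, 10.3, 8.07, 6.6, 5.74 and 5.04.

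Pcdh18 and Pcdh11x were the lowest members per length, at 0.98 ± 0.30 and 0.78 ± 0.05 in wild type and 1.06 ± 0.39 and 0.98 ± 0.18 in cKO. Of the 9 pairs of neighbours in the order of the mean over 6 libraries, 8 overlapped between libraries, and Pcdh19 lay above Pcdh18 in every library. With the longest transcript as length, 3 members kept their rank in that order, Pcdh9, Pcdh8 and Pcdh19. By that length the wild type mean of Pcdh8, 11.98, lay below those of Pcdh10, 15.3, and Pcdh1, 14.3, so its second rank over 6 libraries rests on the cKO libraries.

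**Figure D5:**
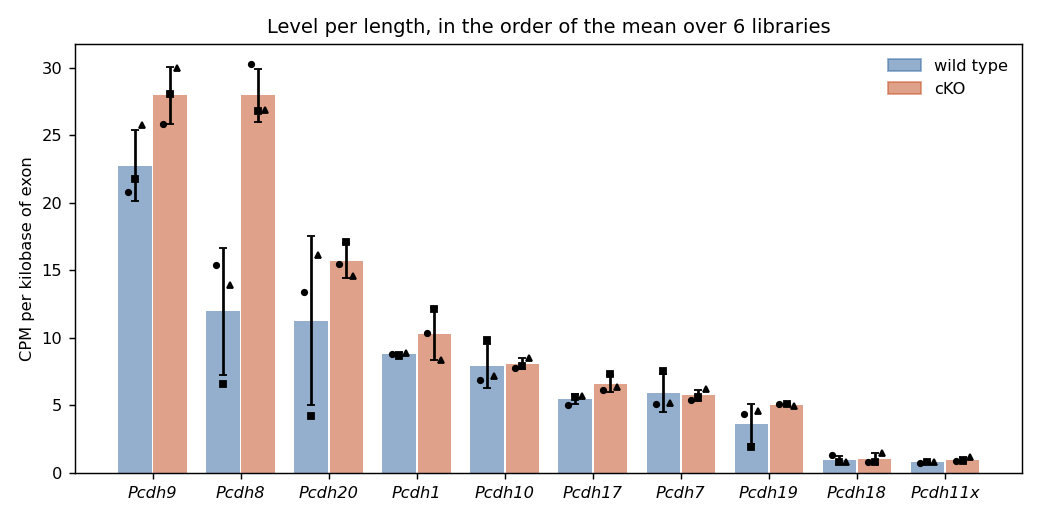
CPM per kilobase of exon for each member, as group means with SD bars (n = 3) and black symbols for libraries (circle, square and triangle for replicates 1, 2 and 3), ordered by the mean over 6 libraries. Pcdh8 and Pcdh9 have the same cKO mean, 28.0, while in wild type Pcdh8 has 11.96 and Pcdh9 22.8.

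The summed level of the 10 members was 652.1, 621.3 and 711.5 CPM in wild type and 818.0, 864.2 and 839.2 CPM in cKO. The groups did not overlap, and Pcdh8 made up 40.6% of the difference between the means. The other 9 members summed to 582.3, 591.3 and 648.5 CPM in wild type and 680.8, 742.6 and 717.3 CPM in cKO, which also did not overlap.

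The libraries' pattern of Pcdh8 was most alike, by Pearson's r of log2 CPM over the 6 libraries, in Rab27b (r = 0.999), Ints8 (0.998) and Tenm2 (0.998). Rab27b, a vesicle trafficking GTPase gene, had 22.4, 16.3 and 21.9 CPM in wild type and 30.4, 28.5 and 28.8 CPM in cKO. Tenm2, a teneurin adhesion gene of synapses, had 86.8 ± 7.54 and 103.3 ± 1.61 CPM. Its log2 fold change of 0.25 was much smaller than that of Pcdh8, since r takes no account of size. For Pcdh9 the most alike genes were Cpsf6, an RNA cleavage factor gene (0.997), Ube2g1, a ubiquitin-conjugating enzyme gene (0.996), and Ythdf3, a reader of methylated RNA (0.996). These values describe 6 libraries of 2 genotypes and come from a search over all tested genes.

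Genes of the proteins that delta protocadherins act through had 0 calls in edgeR and 0 in limma-voom. Of all 14916 tested genes edgeR called 225 and limma-voom 198. Of 9 WAVE complex genes 6 had positive log2 fold changes (median 0.29). At an unadjusted p under 0.05, 4 were higher, against 11.1% of all tested genes. DESeq2 called 3 higher, where it called 3.42% of all genes higher. Abi1, an adaptor subunit, had 114.5, 102.1 and 133.8 CPM in wild type and 165.1, 163.7 and 145.8 CPM in cKO. Abi1 thus differed by 0.44 on the log2 scale (SE 0.11, edgeR adjusted p = 0.104). Wasf3, which activates the Arp2/3 actin nucleator, had 42.8 ± 1.68 and 53.3 ± 2.55 CPM in wild type and cKO, a log2 fold change of 0.32 (adjusted p = 0.0865 by edgeR). The cKO libraries of both genes lay above all wild type libraries.

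Of the 3 catalytic subunits of protein phosphatase 1, 2 had negative log2 fold changes. At an unadjusted p under 0.05, 1 was lower, against 8.81% of all tested genes. Ppp1ca had 205.7, 325.6 and 222.9 CPM in wild type and 175.1, 180.9 and 162.9 CPM in cKO, a log2 fold change of -0.54 (adjusted p = 0.151 by edgeR). Wild type replicate 2 was its highest library, and without it the value was -0.31. Ppp1cc, which encodes the gamma subunit, had 10.7 ± 0.64 and 8.99 ± 0.95 CPM in wild type and cKO, a log2 fold change of -0.25 (adjusted p = 0.316). DESeq2 called Ppp1ca lower and none higher, where it called 2.39% of all genes lower.

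In the list of N-cadherin, catenins and the Taok2 and p38 kinases, through which Pcdh8 acts in rat neurons, 6 of 8 genes had positive log2 fold changes (median 0.07). At an unadjusted p under 0.05, 2 were higher, against 11.1% of all tested genes. DESeq2 called the same number higher, where it called 3.42% of all genes higher. Cdh2, which encodes N-cadherin, had 65.6, 69.4 and 73.7 CPM in wild type and 85.6, 92.4 and 83.3 CPM in cKO, with no overlap (log2 fold change 0.32, SE 0.08, adjusted p = 0.0907). Ctnna2, the neuronal alpha catenin gene, had 137.8 ± 1.86 and 165.1 ± 6.09 CPM in wild type and cKO, a log2 fold change of 0.26 (adjusted p = 0.0953). Mef2a, Mef2c, Mef2d, Fmr1, Mdm2 and Dlg4, which take part in Pcdh10-dependent synapse elimination, had 3 positive and 3 negative log2 fold changes (median 0.15). In that list 2 genes were higher at an unadjusted p under 0.05, against 11.1% of all tested genes, and DESeq2 called 0. Fmr1 had 42.2 ± 12.2 and 61.6 ± 9.42 CPM in wild type and cKO, a log2 fold change of 0.55 (adjusted p = 0.219), and Mef2a 150.1 ± 24.1 and 184.2 ± 10.8 CPM (0.29, adjusted p = 0.235). Without wild type replicate 1 Fmr1 had 0.36, and without wild type replicate 2 Mef2a had 0.19.

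Since Pcdh8 is activity-regulated in rat, 20 immediate early genes were set beside it. Of these 12 had positive and 8 negative log2 fold changes (median 0.08), and edgeR called 0. At an unadjusted p under 0.05, 5 were higher and 0 lower, against 11.1% and 8.81% of all tested genes. DESeq2 called 4 higher, where it called 3.42% of all genes higher. The 2 genes of the list with the smallest p, both higher, were Ptgs2 and Nr4a2. Ptgs2, a cyclooxygenase gene induced by activity, had 10.6, 7.27 and 11.9 CPM in wild type and 16.9, 20.6 and 18.6 CPM in cKO, a log2 fold change of 0.91 (SE 0.19, adjusted p = 0.0649 by edgeR). Nr4a2, an orphan nuclear receptor gene, had 29.0 ± 2.41 and 39.2 ± 2.70 CPM in wild type and cKO, a log2 fold change of 0.44 (adjusted p = 0.0736). Ptgs2 was lowest in wild type replicate 2, as Pcdh8 was, and 38.5% of all tested genes had their lowest wild type level in that library. The summed level of the list was highest in that library, at 2095.2 CPM, against 942.7 to 1498 CPM in the other libraries.

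Markers of other cells and regions were mixed. The summed oligodendrocyte marker level was 14473 to 18793.6 CPM in wild type and 10805.5 to 14484.9 CPM in cKO. All 10 markers had negative log2 fold changes (median -0.35), with 0 called by edgeR. At an unadjusted p under 0.05, 6 were lower, against 8.81% of all tested genes. DESeq2 called 2 lower, Mag and Mbp, where it called 2.39% of all genes lower. The choroid plexus level was 599.3 to 6907.8 CPM in cKO. All 8 of its markers were negative (median -1.17), with 0 called by either tool and 0 at an unadjusted p under 0.05. In edgeR, Prlr and Otx2 had log2 fold changes of -1.19 (adjusted p = 0.28) and -0.85 (adjusted p = 0.295), and of -0.76 and -0.49 without cKO replicate 1, the library at 599.3 CPM. Of the neocortical and thalamic markers 8 of 10 were positive, with 0 called by either tool. At an unadjusted p under 0.05, 1 was lower, Lamp5 (-1.27, adjusted p = 0.195), against 8.81% of all tested genes. Rspo1 had -0.79. Without wild type replicate 2 Lamp5 had -0.57 and Rspo1 -0.39. Of the hippocampal neuron markers 7 of 10 were positive, with log2 fold changes from -1.63 to 1.36. At an unadjusted p under 0.05, 3 were higher and 2 lower, against 11.1% and 8.81% of all tested genes. DESeq2 called 2 higher and 1 lower, against 3.42% and 2.39% of all genes. Wfs1, a CA1 marker, fell from 109.1 ± 13.7 to 48.8 ± 1.43 CPM (adjusted p = 0.00775, and 0.0573 to 0.0608 without wild type replicate 3, cKO replicate 1 or cKO replicate 2). Fibcd1, another CA1 marker, had 54.9, 23.1 and 45.7 CPM in wild type and 115.5, 103.5 and 59.4 CPM in cKO. Its adjusted p was 0.142 by edgeR and 0.00705 by DESeq2. Fibcd1 was lowest in wild type replicate 2, like Pcdh8. Among the wild type libraries, replicate 2 was the lowest for 38.5% of all tested genes.

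The other non-clustered protocadherins were set beside the members. Pcdh15, a hair cell tip link gene, had 11.1 ± 0.58 and 12.7 ± 3.49 CPM in wild type and cKO, a log2 fold change of 0.21 (adjusted p = 0.575), and Pcdh12, an endothelial gene, did not pass the low-count filter. Of 53 tested clustered protocadherins 47 had negative log2 fold changes (median -0.77), and edgeR called 5 lower, against 0.463% of all genes. At an unadjusted p under 0.05 in edgeR, 36 were lower and 3 higher, against 8.81% and 11.1% of all tested genes. DESeq2 called 20 lower and 0 higher, where it called 2.39% of all genes lower. The delta protocadherins had a median of 0.29 on the same scale, and the difference between the families was not tested.

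On the chromosomes most members lay far from other tested genes, with some exceptions. Chromosome 14 held 4 of them, in the order Pcdh8, Pcdh17, Pcdh20 and Pcdh9. On chromosome 3, 0 tested genes lay in the 4308.7 kb between Pcdh10 and Pcdh18. The median gap from a member to the nearest tested gene on each side was 1172 kb, against 13.6 kb between adjacent tested genes overall. Pcdh17 was overlapped by a tested gene, Pcdh10 had one at 0.1 kb, and the neighbours of Pcdh1 lay at 26.4 and 186.4 kb.

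The neighbours were 18 different genes, Pcdh10 and Pcdh18 among them. Of the 16 outside the family 7 had positive and 9 negative log2 fold changes (median -0.02). In edgeR 0 neighbours passed, 4 had an unadjusted p under 0.05, against 19.9% of all tested genes, and DESeq2 called 1, Gm5088. That gene lies between Pcdh20 and Pcdh9, at 1424.8 kb from the first and 3114.3 kb from the second, and had a log2 fold change of -0.85 (SE 0.17, adjusted p = 0.0605 by edgeR), opposite in sign to both. The neighbours of Pcdh8, 4930452G13Rik at 53.8 kb and Olfm4 at 229.0 kb, had log2 fold changes of -0.21 (SE 0.47) and 0.54 (SE 0.49). The nearest neighbour of Pcdh10, 2610316D01Rik, ends 0.1 kb from it and had a log2 fold change of 0.27 (adjusted p = 0.516).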

How the data were processed

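The authors deposited, for each library, whole-number counts of reads for every gene symbol. The same table holds normalised counts, a signal in which the authors scaled every library by 1 factor. It also holds the authors' log2 fold changes, with a deposited p-value before and after adjustment. Per the submitters' processing notes, mm10 and the tools DESeq2 1.6.3, HTSeq 0.6.1p1, TopHat2 2.0.10 and cutadapt were used, with order and settings not given. Column names gave the genotype and number of each sample, with 0 columns left over, and no library was a copy of another (the lowest chi-square per degree of freedom between libraries was 10.66).

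Counts were tested over all genes with edgeR 4.0.16 in R 4.3.3 by the quasi-likelihood test, with a minimum count of 10 in its expression filter, TMM scaling, Benjamini-Hochberg adjustment and a threshold of 0.05. Adjusted p-values are from that test unless another tool is named, and CPM values use TMM library sizes. The test gives no SE, so each SE was computed as the absolute log2 fold change over the square root of the F statistic. The 95% intervals used the t distribution with the test's total degrees of freedom. Exon lengths and overlaps came from GENCODE M21, positions and start-site windows from RefSeq on GRCm38.p6. DESeq2 1.42.0, limma-voom (limma 3.58.1), other scalings and filters, a replicate block and left-out libraries were alternatives. The fit was tested on simulated data. Members and gene lists were chosen with earlier results of these data known. Named are the members, Ctcf, called genes and the 2 smallest p of each list, neighbours that were called or whose distance is given, and the 3 genes most alike to Pcdh8 and Pcdh9. Npas4 and C1ql2 are named because they were called in an alternative.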

Additional observations from a re-analysis of the deposited data

How the results depend on the processing

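With any 1 library left out, edgeR called 12 to 147 genes (225 with all), 0 to 1 members, 0 to 3 list genes (1 with all) and 0 to 0 neighbours. In replicate order, the count of genes was 35, 147 and 12 when a wild type library was left out, and 13, 14 and 79 for a cKO library. The Pcdh10 log2 fold change then ranged from -0.072 to 0.20, Pcdh7 from -0.145 to 0.16, Pcdh18 from -0.22 to 0.41 and Pcdh15 from -0.048 to 0.33, so their direction rests on single libraries. Pcdh8 ranged from 0.93 to 1.44, with edgeR adjusted p from 0.00797 to 0.242. Leaving out wild type replicate 1 or 3 gave Ctcf an adjusted p of 0.0604 or 0.101, and leaving out cKO replicate 2 gave 0.124. Wfs1 had 0.0608 when wild type replicate 3 was dropped, and 0.0573 or 0.06 when cKO replicate 1 or 2 was. Without wild type replicate 2 and cKO replicate 1, edgeR called 111 genes, 1 member (Pcdh8) and 5 list genes (Adora2a, C1ql2, Npas4, Tac1 and Wfs1), and Pcdh7 was 0.21. DESeq2 called 869 genes (58.9% higher, against 69.3% with edgeR), 1 member, 23 list genes and 1 neighbour. Without the low-count filter 5 list genes were called, 4 of them striatal.

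Same-numbered libraries correlated by 0.219, 0.425 and 0.079 in their deviations from the group means, and replicate 3 of wild type did not correlate best with its own number, so the numbers were not taken to pair the libraries. With the replicate block edgeR called 185 genes (57.8% higher), 0 members and 9 list genes, the 8 striatal markers and Wfs1, and Pcdh8 had an adjusted p of 0.0611. Other scalings, the mean CPM filter and limma-voom changed no direction and no call of a member. With 3 libraries in each group, intervals of the log2 fold change ran from -0.48 to 1.44 for Pcdh20 and from 0.05 to 0.49 for Pcdh17.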
